A study of Homo sapiens with 6 samples.

Results

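The 10 tubulin genes described here are the alpha-tubulin genes TUBA1A, TUBA1B, TUBA1C and TUBA4A and the beta-tubulin genes TUBB, TUBB2A, TUBB2B, TUBB3, TUBB4B and TUBB6, out of 61806 genes in the deposited table. They were chosen by gene symbol as members of 1 family, with their counts in both groups already known. Their levels and fold changes are therefore a description and are given without p-values. RNA was sequenced in HFF cells, a culture of human foreskin fibroblasts that the labels give as a wild type cell line, 3 libraries per group. Every library came from cells irradiated with 40 mJ per cm2 of UVB, the short-wave band of sunlight that damages DNA directly. One group carries no further agent in its label (UVB), and the protocol names a vehicle for such cells. The other group received 10 µM sauchinone, a plant lignan (UVB + sauchinone). The protocol gives 48 h of culture after irradiation and also a version with the compound added beforehand, without saying which version these libraries came from. Cells without UVB were not analysed here, and both groups below are irradiated. The labels give no choice between poly(A) RNA and RNA cleared of ribosomal RNA.

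Microtubules are hollow polymers of alpha- and beta-tubulin dimers, which carry cargo, shape the cell and build the mitotic spindle. Vertebrates have several genes for each subunit, called isotypes, whose proteins differ mostly in their acidic tails. Cells also adjust tubulin mRNA to the pool of free dimers: when free dimers are in excess, the protein TTC5 recognises the first residues of a nascent tubulin chain on the ribosome, and the mRNA is degraded through SCAPER and the CCR4-NOT deadenylase. In fibroblasts TUBA1A, TUBA1B, TUBA1C, TUBB, TUBB4B and TUBB6 are the usual isotypes, while TUBB3 and TUBB2B are best known from neurons and TUBA4A from platelets and neurons.

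The signal for this autoregulation lies in the first 4 codons, which in beta-tubulin encode methionine, arginine, glutamate and isoleucine, and in alpha-tubulin methionine, arginine, glutamate and cysteine. The first 24 coding bases of the reference transcripts (GENCODE release 29, GRCh38) are shown because the whole family shares this feature. Capitals mark the 4 codons of the signature.
TUBA1A: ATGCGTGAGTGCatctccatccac
TUBA1B: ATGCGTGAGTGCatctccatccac
TUBA1C: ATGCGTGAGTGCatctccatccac
TUBA4A: ATGCGTGAATGCatctcagtccac
TUBB: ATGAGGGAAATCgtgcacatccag
TUBB2A: ATGCGCGAGATCgtgcacatccag
TUBB2B: ATGCGTGAGATCgtgcacatccag
TUBB3: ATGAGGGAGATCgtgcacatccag
TUBB4B: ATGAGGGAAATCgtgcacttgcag
TUBB6: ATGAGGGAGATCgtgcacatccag
TUBG1: atgccgagggaaatcatcacccta
All 10 genes carried the signature, with the cysteine codon in the 4 alpha genes and the isoleucine codon in the 6 beta genes. TUBG1, the gene of the gamma-tubulin that nucleates microtubules, is shown for contrast and did not have it in its first 4 codons. The 3 TUBA1 genes were identical over these 24 bases, as were TUBB3 and TUBB6. Since all 10 genes hold the signature, its presence did not separate genes with large from genes with small differences below.

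The near-identity of the copies matters for reading their counts. Coding sequences were 84.4% to 97.2% identical among the 4 alpha genes and 81.0% to 98.2% among the 6 beta genes, with the highest value for TUBB2A and TUBB2B. Of all 150-base windows of a gene's reference transcript, the read length in the protocol, 49.4% in TUBB2A and 39.4% in TUBB2B occurred unchanged in transcripts of another gene, mainly each other. The share was 19.1% in TUBA1B, 6.91% in TUBA1A and 6.77% in TUBA1C, again mainly among each other. In TUBB3 it was 88.7%, mainly through a read-through transcript on the same strand that holds the TUBB3 exons and had 1 count over the 6 libraries. No window of TUBA4A, TUBB4B or TUBB6 was found in another gene's annotated transcripts, and 2.5% of TUBB windows were, with the pseudogene TUBBP1. How the authors assigned such reads is not given in the sources used here, so single values of TUBB2A, TUBB2B, TUBB3 and the TUBA1 genes are uncertain.

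Total counts per library ran from 20984851 to 23076388, and 3 counts corresponded to 0.130 to 0.143 counts per 1000000 of these totals. Levels below are in CPM (counts per 1000000, with library sizes scaled by TMM). All 10 fibroblast markers checked were among the 15704 genes tested, with a summed level of 14453 to 15376 CPM in UVB and 9076 to 9464 CPM in UVB + sauchinone. Of these 10, 9 fell, beside 24.9% of all genes tested. Of 8 keratinocyte markers 6 had counts, with a summed level of 640 to 693 CPM in UVB and 477 to 538 CPM in UVB + sauchinone. Of the 3 tested DSP and IVL fell, and KRT5 and KRT1 were at 0. Of 6 melanocyte markers 5 had counts, summing to 1.85 to 2.55 and 1.47 to 1.63 CPM. Of the 2 tested MLANA fell, and DCT was at 0. Of 6 endothelial markers 4 had counts, summing to 6.76 to 7.99 and 2.51 to 3.39 CPM. The 1 tested, TEK, fell, and CDH5 and KDR were at 0. The part of these markers in the tubulin values was not tested. The labels leave out whether replicates came from separate cultures, so p-values measure the spread between these libraries, which may be technical. Every library carries the same batch label. All 10 tubulin genes passed the filter on low counts, and none had fewer than 47 counts in a library. The 8 alpha and beta genes outside the set (TUBA3C, TUBA3D, TUBA3E, TUBA8, TUBAL3, TUBB1, TUBB4A and TUBB8) were not tested, with at most 38 counts over all 6 libraries, in TUBB1.

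With sauchinone, 7 of the 10 genes were higher by edgeR's quasi-likelihood test (Benjamini-Hochberg adjusted p under 0.05) and none was lower. Among all genes tested 24.7% passed as higher and 24.9% as lower, 49.6% in all. Because the genes were chosen with this contrast known, nothing is read from their count. Their median log2 fold change was 0.66, against 0.007 over all genes tested. TUBB3, TUBA4A, TUBB2A, TUBB4B and TUBB2B were 1.91- to 3.08-fold higher, TUBA1C and TUBA1B 1.31- and 1.18-fold higher, and TUBB, TUBA1A and TUBB6 did not pass. In 6 genes every library of UVB + sauchinone lay above every UVB library, against 28.6% of all genes tested (57.1% lay apart in either direction). In the other 4 (TUBA1A, TUBA1B, TUBB and TUBB6) the groups overlapped.

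**Figure D1:**
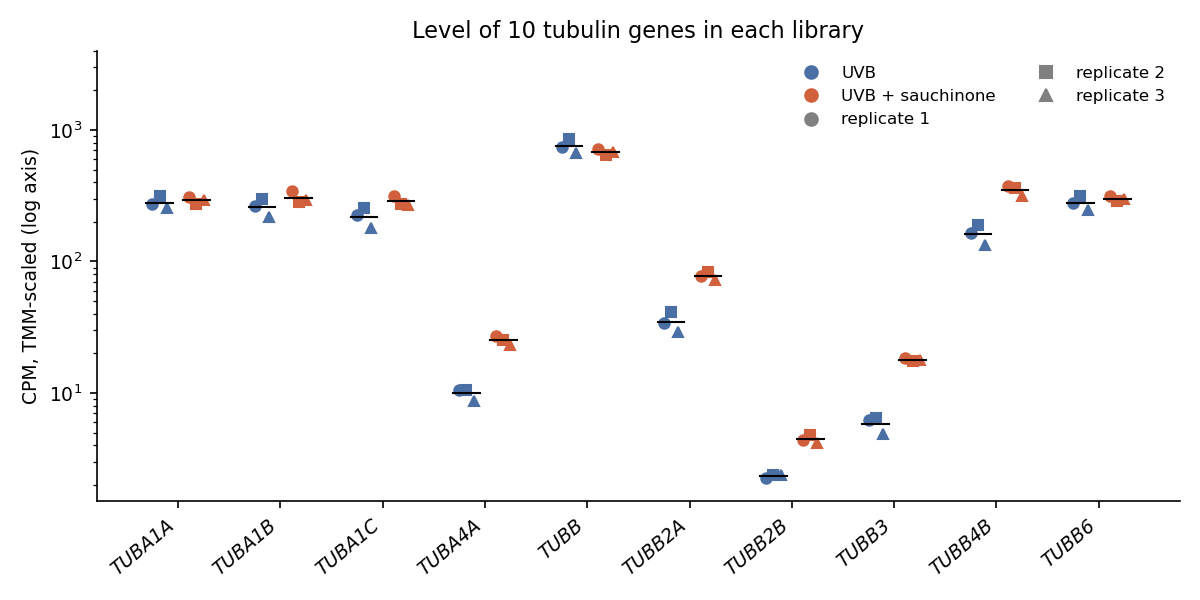
Level of each tubulin gene in CPM (TMM-scaled, log axis) in the 3 UVB libraries (blue) and the 3 UVB + sauchinone libraries (orange), with marker shapes for replicates and black lines for group means. The groups lie apart in TUBA1C, TUBA4A, TUBB2A, TUBB2B, TUBB3 and TUBB4B and overlap in TUBA1A, TUBA1B, TUBB and TUBB6.

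Of the alpha genes, TUBA1A, TUBA1B and TUBA1C lie together on chromosome 12 (GRCh38, coordinates of the deposited table) and supply most alpha-tubulin mRNA in these cells. TUBA1A (ENSG00000167552, 49184686 to 49189080, minus strand) was at 274, 314 and 253 CPM in UVB replicates 1, 2 and 3 and at 309, 276 and 294 CPM in UVB + sauchinone replicates 1, 2 and 3. Its highest value was in a UVB library and the groups overlapped, with a log2 fold change of 0.064 ± 0.08 (SE). TUBA1B (ENSG00000123416, 49127782 to 49131397, minus strand), a constitutive alpha isotype, was at 262, 296 and 218 CPM in UVB and at 341, 282 and 292 CPM with sauchinone. The ranges overlapped because UVB replicate 2 exceeded UVB + sauchinone replicates 2 and 3, and the log2 fold change was 0.24 ± 0.093. That call was lost in 10 of 17 alternatives, with a value of 0.01 when the trend of counts with genomic span was removed and 0.12 without UVB replicate 3. It was also lost without UVB replicate 1 (0.24), UVB + sauchinone replicate 1 (0.15) or UVB + sauchinone replicate 3 (0.27).

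TUBA1C (ENSG00000167553, 49188736 to 49274600, plus strand) was at 224, 254 and 180 CPM in UVB and at 317, 273 and 270 CPM with sauchinone. All 3 sauchinone libraries were above all 3 UVB libraries, and the log2 fold change was 0.39 ± 0.097. It was 0.26 without UVB replicate 3 and 0.50 without UVB replicate 2, and passed in both. Its annotated span overlaps that of TUBA1A on the opposite strand by 345 bases, and since the use of strand in counting is not stated, reads from there cannot be assigned with certainty. Summed before the fit, which removes reads exchanged among them, the 3 genes had a log2 fold change of 0.22 ± 0.085 (an alternative chosen after the data were seen).

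TUBA4A (ENSG00000127824, chromosome 2 at 219249710 to 219277902, minus strand), the alpha isotype known for platelets and neurons, was at 10.6, 10.5 and 8.74 CPM in UVB and at 27.2, 25.3 and 23.4 CPM with sauchinone. The lowest sauchinone library was above the highest UVB library by a wide margin. The log2 fold change of 1.35 ± 0.12 was the largest of the alpha genes, from a level far under that of the TUBA1 genes. Its span overlaps STK16 on the opposite strand by 628 bases, and STK16 had a log2 fold change of -0.071.

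Of the beta genes, TUBB (ENSG00000196230, chromosome 6 at 30717435 to 30725538, plus strand) encodes the main class I beta-tubulin of dividing and non-muscle cells. It was at 747, 854 and 666 CPM in UVB and at 712, 642 and 681 CPM with sauchinone. It was the only member whose mean was lower with sauchinone, and the groups overlapped, with a log2 fold change of -0.16 ± 0.079. The gene passed as lower in 4 alternatives. Its value was -0.24 without UVB replicate 3, -0.36 after correction for genomic span, -0.22 after correction for exonic size and -0.24 after correction for GC content. Without UVB replicate 2 it was -0.062 and did not pass.

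TUBB4B (ENSG00000188229, chromosome 9 at 137241287 to 137243707, plus strand), a widely expressed class IV isotype, was at 164, 189 and 133 CPM in UVB and at 372, 363 and 315 CPM with sauchinone. The groups were well apart, and the 2.16-fold difference (log2 1.11 ± 0.098) was the largest among the 6 most abundant members. No window of its reference transcript was found in another gene's annotated transcripts. Other exons of the gene and unannotated genomic copies were not searched.

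TUBB2A (ENSG00000137267, chromosome 6 at 3153497 to 3157544, minus strand) was at 33.9, 41.5 and 29.3 CPM in UVB and at 78.1, 83.9 and 72.7 CPM with sauchinone. Its neighbour TUBB2B (ENSG00000137285, chromosome 6 at 3223324 to 3231730, minus strand), 65.8 kb away, was at 2.26, 2.36 and 2.38 CPM in UVB and at 4.39, 4.84 and 4.20 CPM with sauchinone. In both genes all sauchinone libraries lay above all UVB libraries, with log2 fold changes of 1.16 ± 0.11 and 0.94 ± 0.20. Reads of these copies cannot be separated with certainty, which bears most on the low count of TUBB2B. Their summed counts gave a log2 fold change of 1.15 ± 0.10 (also chosen after the data were seen).

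TUBB3 (ENSG00000258947, chromosome 16 at 89921392 to 89938761, plus strand), the class III isotype used as a neuronal marker, was at 6.21, 6.44 and 4.85 CPM in UVB and at 18.6, 17.5 and 17.7 CPM with sauchinone. This was the largest fold difference of the 10 genes, 3.08-fold (log2 1.62 ± 0.14), with the groups far apart. Of 10 other neuron markers 6 were tested. INA rose and SNAP25, SYT1, NEFL and NEFM fell, beside 24.7% higher and 24.9% lower among all genes tested. ELAVL3 and DCX had no count. The summed level of the 10 markers was 138 to 151 CPM in UVB and 91.1 to 96.9 CPM in UVB + sauchinone.

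TUBB6 (ENSG00000176014, chromosome 18 at 12307669 to 12344320, plus strand), a class V isotype abundant in fibroblasts, was at 278, 315 and 245 CPM in UVB and at 316, 288 and 297 CPM with sauchinone. The groups overlapped, and the log2 fold change was 0.10 ± 0.082. It passed as higher without UVB replicate 2 (0.20) and was negative after correction for GC content (-0.11). AFG3L2 lies on the opposite strand over 15377 bases of its span and had a log2 fold change of 0.53.

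**Figure D2:**
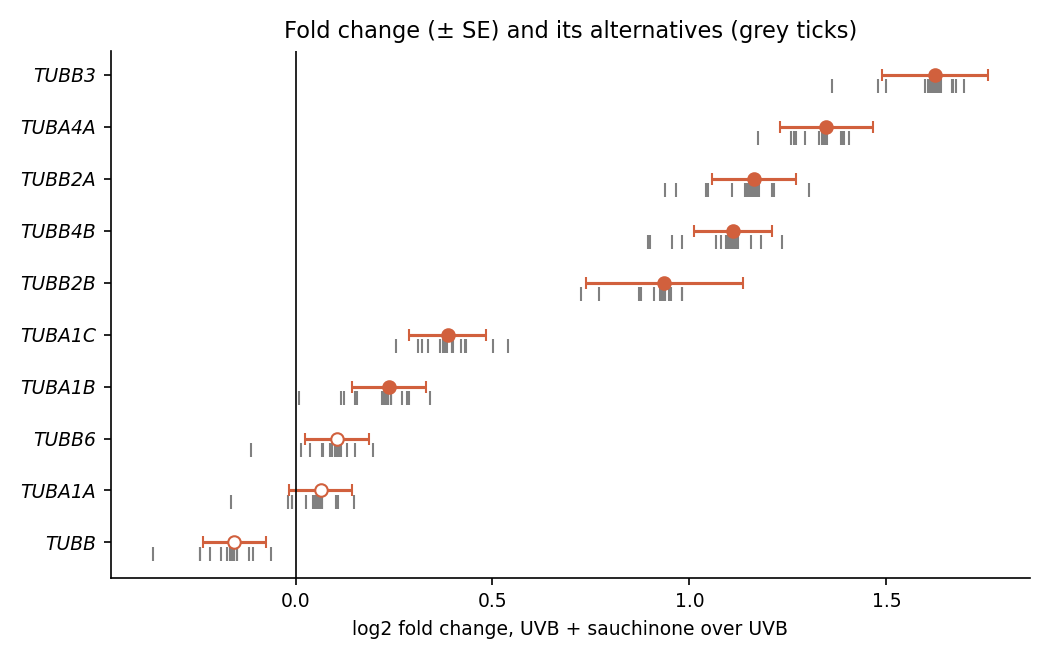
Log2 fold change of each tubulin gene, UVB + sauchinone over UVB (circles, bars are ± SE, filled where the gene passed the test), with grey ticks for the same value under each alternative. TUBB3, TUBA4A, TUBB2A, TUBB4B and TUBB2B stayed at 0.73 or above in every alternative run, while TUBA1A and TUBB6 had ticks on both sides of 0.

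Per length of exon, the levels of the 10 genes covered a wide range, and their order was mostly the same in both groups. In UVB, TUBB was highest at 186 ± 23.1 CPM per kb (mean ± SD, n = 3). It was followed by TUBB4B at 79.6 ± 13.9, TUBA1A at 73.3 ± 8.06, TUBA1B at 72.4 ± 11.0 and TUBB6 at 70.9 ± 8.89 CPM per kb, 4 genes whose neighbours in that order overlapped. TUBA1C at 49.3 ± 8.46, TUBB2A at 12.02 ± 2.11, TUBA4A at 2.69 ± 0.28, TUBB3 at 0.79 ± 0.12 and TUBB2B at 0.56 ± 0.016 CPM per kb came next, each apart from its neighbours. In UVB + sauchinone, TUBB4B at 172 ± 15.0 and TUBB at 167 ± 8.57 CPM per kb overlapped at the top, and TUBA1B (85.3 ± 8.93), TUBA1A (76.6 ± 4.37) and TUBB6 (76.2 ± 3.52) overlapped below them. The lower 5 kept the order they had in UVB, from TUBA1C at 64.4 ± 5.94 to TUBB2B at 1.08 ± 0.079 CPM per kb. The exonic sizes in the table cover all annotated isoforms (7421 bases for TUBB3, against 1769 bases in its reference transcript), so levels per length depend on them.

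The isotype makeup of the beta pool differed between the groups more than its total did. TUBB made up 53.2% ± 0.83 of the summed beta counts per kb in UVB and 37.5% ± 1.8 with sauchinone (SD over n = 3 libraries). TUBB4B made up 22.7% ± 0.98 and 38.6% ± 2.1. By library, the TUBB4B share was 23.2%, 23.4% and 21.6% in UVB and 39.0%, 40.4% and 36.3% with sauchinone, so that the groups were far apart. On this scale TUBB and TUBB4B together held nearly the same share, 75.9% ± 0.16 and 76.0% ± 0.38. In raw counts the TUBB share changed by -13.5 points and the TUBB4B share by 11.5 points. Per kb of reference transcript the changes were -14.4 and 13.5 points, so the even sum depends on the scale. The share of TUBB6 was 20.3% ± 0.25 and 17.1% ± 0.57, that of TUBB2A 3.43% ± 0.14 and 6.05% ± 0.42, and those of TUBB3 and TUBB2B stayed under that of TUBB2A in both groups, at 0.54% and 0.24% with sauchinone. With lengths of reference transcripts in place of exonic sizes, the TUBB4B share went from 18.2% to 31.7% and stayed under that of TUBB (52.1% and 37.7%), so which of the pair is higher with sauchinone depends on the length used. These shares come from the same counts as the fold changes and were not tested.

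The alpha pool changed less in makeup. TUBA1A made up 37.2% ± 1.5 in UVB and 32.9% ± 1.2 with sauchinone, TUBA1B 36.6% ± 0.58 and 36.5% ± 0.80, TUBA1C 24.8% ± 0.95 and 27.6% ± 0.61, and TUBA4A 1.37% ± 0.092 and 2.94% ± 0.17. TUBA1C and TUBA4A thus held larger shares with sauchinone in all 3 libraries than in any UVB library, and the TUBA1A share was smaller in all 3.

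**Figure D3:**
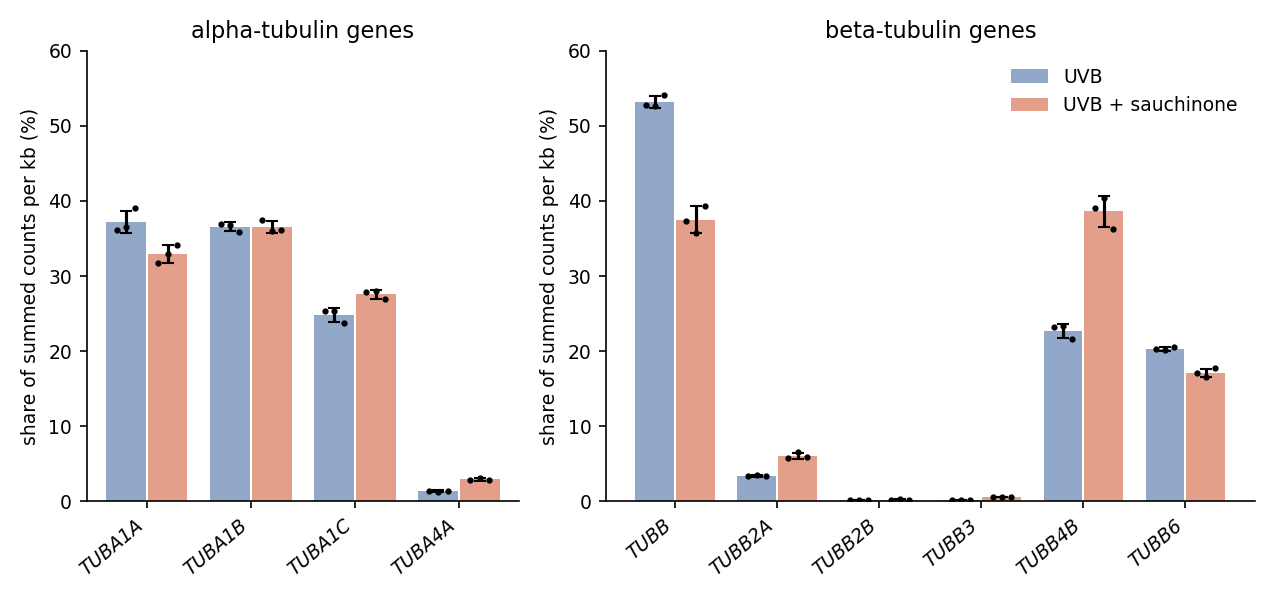
Share of each isotype in the summed counts per kb of exonic size of the alpha genes (left) and beta genes (right), in percent, as group means with SD bars and a dot for each of the 3 libraries. TUBB holds 53.2% of the beta pool in UVB and 37.5% with sauchinone, and TUBB4B 22.7% and 38.6%, while the TUBA1A share of the alpha pool is 37.2% and 32.9%.

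Summed over the family, tubulin counts were 2003, 2283 and 1740 CPM in UVB and 2495, 2255 and 2267 CPM in UVB + sauchinone, a ratio of means of 1.16 with overlapping groups. The summed alpha level was 768 ± 108 CPM in UVB and 910 ± 74.4 CPM with sauchinone, and the summed beta level 1240 ± 164 CPM and 1430 ± 61.7 CPM. The alpha to beta ratio of counts was 0.619 ± 0.0084 and 0.636 ± 0.026. These sums and this ratio use CPM not divided by length, unlike the shares above. Per kb of exonic size the family sums of the groups lie apart and the alpha to beta ratio is lower with sauchinone. Both therefore depend on the scale. The mean beta level was higher by 190 CPM with sauchinone, and that of TUBB4B alone by 188 CPM. Without TUBB4B, the beta sum was 1078 ± 136 CPM and 1079 ± 46.2 CPM, since the higher TUBB2A (by 43.3 CPM), TUBB6 (21 CPM), TUBB3 (12.1 CPM) and TUBB2B (2.14 CPM) were offset by TUBB (-77.0 CPM).

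Within the UVB group the family moved together between libraries. UVB replicate 2 was the highest of the 3 in 8 of 10 tubulin genes and UVB replicate 3 the lowest in 9 of 10, against 37.3% and 40.0% of all genes tested. The median log2 deviation of the 10 genes from their UVB mean was 0.18 in replicate 2 and -0.21 in replicate 3. Over all genes, UVB replicates 2 and 3 also differed more than any other pair within a group. Their chi-square of counts per degree of freedom was 20.1, against 4.02 to 9.25 in the other pairs. TUBB2B was at its highest in replicate 3, and TUBA4A in replicate 1. The UVB + sauchinone libraries were closer, with medians of 0.075, -0.047 and -0.07, and replicate 1 was highest in 8 of 10 genes. The distance between the UVB medians of replicates 2 and 3 was larger than the log2 differences of TUBA1A, TUBA1B, TUBA1C, TUBB and TUBB6 between the groups and smaller than those of the 5 genes that differed most.

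**Figure D4:**
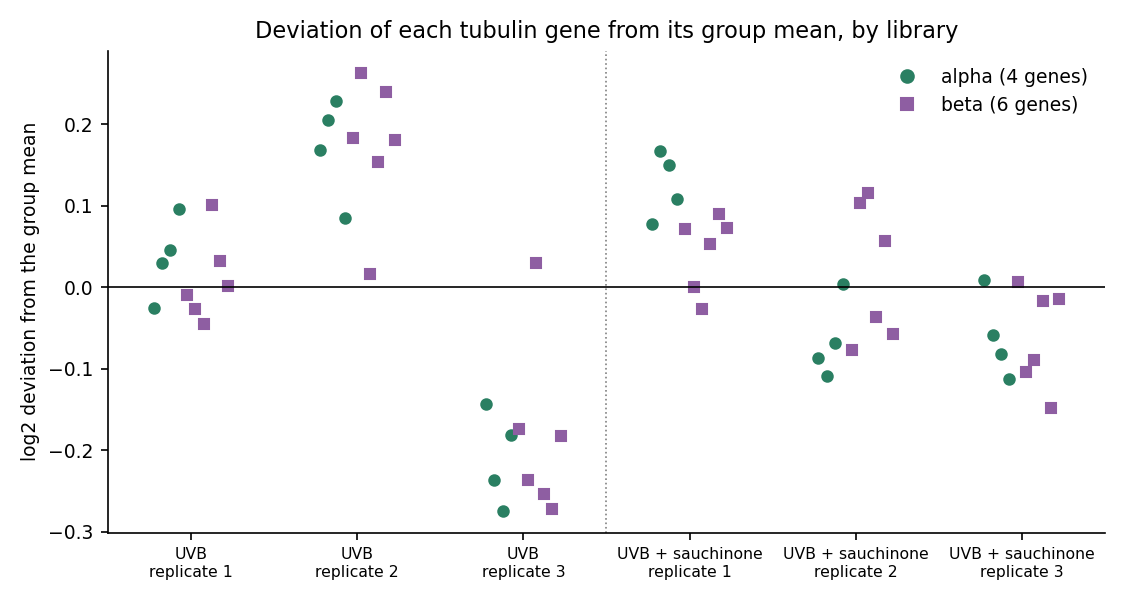
Log2 deviation of each tubulin gene from the mean of its own group, by library, with circles for the 4 alpha and squares for the 6 beta genes. All points of UVB replicate 2 lie between 0.017 and 0.26, and in UVB replicate 3 TUBB2B alone lies above 0.

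The genes whose profile over the 6 libraries was most like that of the summed tubulin counts were LIG3, LGALS1, GPI, ARF5 and NCAPH2. The root mean square difference of centred log2 CPM was 0.019, 0.029, 0.033, 0.034 and 0.035, the smallest among the 9044 other genes that averaged 10 CPM or more.

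The promoters of 3 members are shown, those of TUBB4B and TUBB2A, which were both higher with sauchinone, and of TUBB, which did not pass. They are given as the 250 bases before a RefSeq transcript start (RefSeq table for GRCh38.p14, 5′ to 3′ on the gene's strand). All 10 genes had at least 1 entry, 15 starts in all, several genes having more than 1. Capitals mark CCAAT boxes, the TATA box letters TATAAA and the cAMP response element TGACGTCA, searched on both strands.
TUBB4B, chr9:137241037-137241286, plus strand: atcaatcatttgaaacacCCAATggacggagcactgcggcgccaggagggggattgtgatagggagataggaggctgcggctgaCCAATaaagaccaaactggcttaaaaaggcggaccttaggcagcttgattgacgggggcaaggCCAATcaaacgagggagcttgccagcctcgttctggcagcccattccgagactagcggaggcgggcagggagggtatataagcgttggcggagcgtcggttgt
TUBB2A, chr6:3157545-3157794, minus strand: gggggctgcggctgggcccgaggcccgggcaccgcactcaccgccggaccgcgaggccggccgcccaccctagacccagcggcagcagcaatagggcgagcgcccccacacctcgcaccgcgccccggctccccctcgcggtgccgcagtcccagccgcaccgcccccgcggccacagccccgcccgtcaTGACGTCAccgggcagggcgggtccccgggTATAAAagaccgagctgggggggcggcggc
TUBB, chr6:30720102-30720351, plus strand, the first of 2 starts: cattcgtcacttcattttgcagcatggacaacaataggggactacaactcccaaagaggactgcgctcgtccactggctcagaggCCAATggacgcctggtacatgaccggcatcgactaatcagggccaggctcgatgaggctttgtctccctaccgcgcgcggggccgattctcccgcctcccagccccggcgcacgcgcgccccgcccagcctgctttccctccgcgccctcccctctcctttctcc
TUBB4B had 3 CCAAT boxes, at 232, 166 and 103 bases before the start, and TUBB had 1. CCAAT occurred at 9 of the 15 starts, in 7 of the 10 genes (TUBA1A, TUBA1C, TUBB, TUBB2B, TUBB3, TUBB4B and TUBB6), and in 32.0% of all 35116 promoters of this length. Starts of 1 gene can overlap, and the motif was present in genes with large and with small differences. TUBB2A had a cAMP response element, TGACGTCA, at 60 to 53 bases before the start and TATAAA at 30, which occurred in 1.6% and 10.7% of all promoters and in no other member. Only the exact letters TATAAA were searched, so near matches such as tatataag in the TUBB4B stretch above were not counted. The shorter core TGACGT, which lies within the longer element in TUBB2A, was also found in TUBB2B and in 7.1% of all promoters. Of the other motifs searched, GGGCGG (the GC box) was found at 9 of the 15 starts, in 8 members, and in 42.6% of promoters, and GAANNTTC (heat shock element) only in TUBA1C (5.8%). TGANTCA (AP-1 site) and TGACNNNGC (antioxidant response element core) were found only in TUBB3 (6.6% and 10.9%). The heat shock match of TUBA1C lay in the overlapping stretches beginning at 49227676 and 49227769, not in that at 49264832, nearer the start codon. The AP-1 and antioxidant matches of TUBB3 lay in the stretch beginning at 89921675, not in that at 89923092, nearer the start codon. A match of letters is a description and not evidence that a factor binds.

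Around the tubulin genes, 146 other microtubule genes in 9 lists were read from the same fit, lists that were drawn up with results of these data known. Of the 129 tested, 27 rose, 39 fell and 63 did not pass, 51.2% called against 49.6% of all genes. Prefoldin, the ring chaperonin CCT and the cofactors TBCA to TBCE fold nascent tubulin and join it into dimers, and 9 of 22 rose, 4 fell and 9 did not pass, with a median log2 fold change of 0.15. TBCC, the cofactor that triggers release of the dimer, rose from 18.3 ± 2.69 to 34.6 ± 3.54 CPM (log2 0.92 ± 0.12, n = 3, edgeR adjusted p = 7.1e-07). The CCT subunit genes CCT7 and CCT3 rose by 0.42 ± 0.08 and 0.35 ± 0.075 (edgeR adjusted p = 0.00015 and 0.00044). The count of 9 became 5 without UVB replicate 1 and also 5 without UVB + sauchinone replicate 2. VBP1, TBCA, TBCEL and PDCL3, which fell, became 2 genes without UVB replicate 1, 2 without UVB + sauchinone replicate 1 and 1 without UVB + sauchinone replicate 3.

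Of 13 genes of tubulin mRNA autoregulation, 3 rose, 2 fell and 8 did not pass. Over all genes tested 24.7% were higher and 24.9% lower. TTC5, which recognises the nascent signature shown above, was at 26.2 ± 1.13 and 28.6 ± 2.22 CPM (edgeR adjusted p = 0.31). It passed as higher after correction for exonic size (log2 0.28, edgeR adjusted p = 0.022) and for GC content (0.27, 0.01). SCAPER, its adaptor, fell from 4.64 ± 0.30 to 1.21 ± 0.22 CPM (log2 -1.93 ± 0.23, edgeR adjusted p = 3.5e-07). SCAPER spans 558 kb, and with the trend of counts with span removed its log2 fold change was -0.77 (edgeR adjusted p = 0.0094). Of the CCR4-NOT genes, CNOT2 fell by 0.46 ± 0.086 (edgeR adjusted p = 0.00011) and CNOT1, the scaffold, was at 232 and 235 CPM (edgeR adjusted p = 0.82). The call of CNOT2 was lost after correction for exonic size (-0.20, edgeR adjusted p = 0.053), and its value was -0.20 after correction for span (0.043). CNOT1 passed as higher after correction for span (0.28, edgeR adjusted p = 0.0021) and for exonic size (0.21, 0.014). The count that rose was 6 with the span trend removed, 7 with the exonic size trend removed and 9 with the GC trend removed.

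Of the 4 other tubulin superfamily genes tested, TUBD1, the delta-tubulin gene of centrioles, rose from 4.07 ± 0.89 to 6.65 ± 1.34 CPM (edgeR adjusted p = 0.0043). The gamma-tubulin genes differed from each other in their calls, with TUBG2 at 15.7 ± 0.62 and 12.8 ± 0.28 CPM (edgeR adjusted p = 0.033) and TUBG1 at 39.0 ± 7.38 and 44.9 ± 3.69 CPM (edgeR adjusted p = 0.14), a difference that was not tested. The call of TUBG2 was lost when any 1 library other than UVB replicate 3 was left out (edgeR adjusted p = 0.06 to 0.081). That call was also lost with DESeq2 (DESeq2 adjusted p = 0.07). The same held with total counts only, no filter on low counts or the replicate block (edgeR adjusted p = 0.058 to 0.073). TUBG2 was at -0.52 after correction for span and -0.48 after correction for GC content, and passed in both. TUBG1, whose UVB values followed those of the tubulin genes with 763, 1020 and 748 counts, passed as higher without UVB replicate 2 (edgeR adjusted p = 0.0035). In the gamma-tubulin nucleation complex, which seeds microtubules at centrosomes, 5 of 12 genes fell and none rose. Among all genes tested 24.9% were lower and 24.7% higher. In this list 1 gene passed as higher without UVB replicate 1, UVB replicate 2 or UVB + sauchinone replicate 2. The same count was seen with total counts only and with the GC trend removed. With the exonic size trend removed 2 passed as higher and 4 as lower. CDK5RAP2, a centrosomal activator of nucleation, fell by 0.92 ± 0.095 (edgeR adjusted p = 4.8e-08), AKAP9 by 0.93 ± 0.12 (6.6e-07) and NEDD1, which anchors the complex, by 0.57 ± 0.082. With the span trend removed, CDK5RAP2 and AKAP9 were at -0.35 and -0.44, and with the exonic size trend removed at -0.44 and -0.45. NEDD1 was at -0.30 with the GC trend removed.

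**Figure D5:**
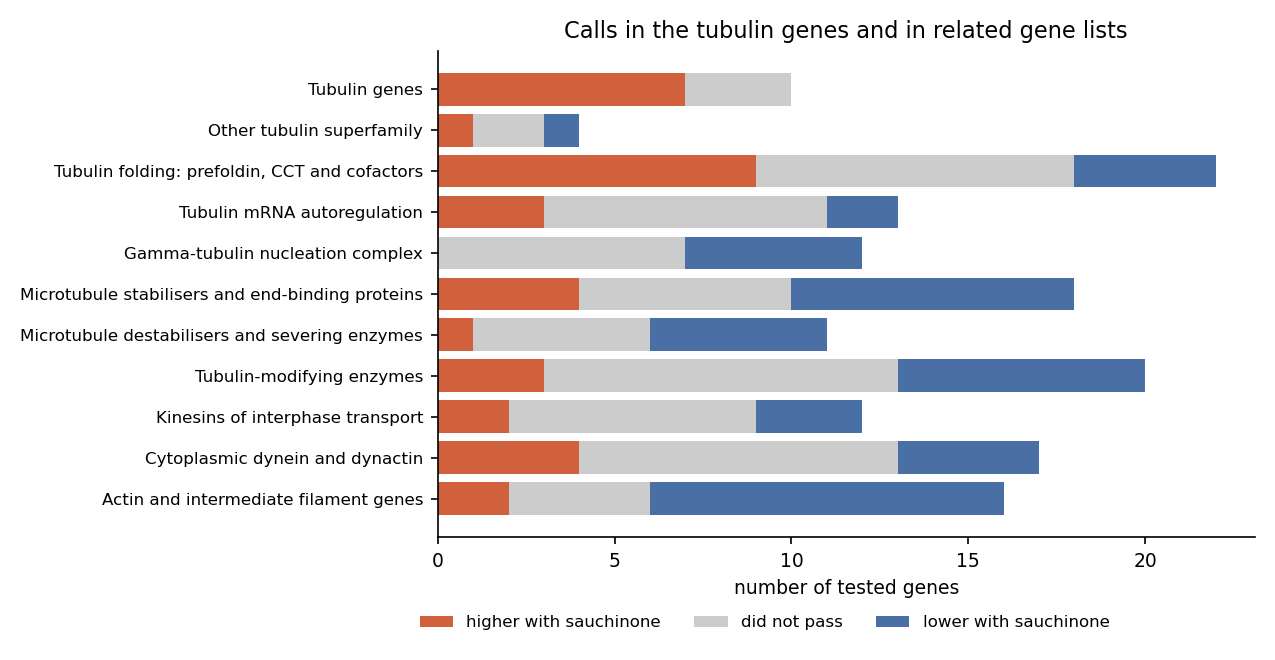
Number of tested genes in each list that were higher (orange), did not pass (grey) or were lower (blue) with sauchinone, by edgeR's quasi-likelihood test. The tubulin genes have 7 higher and none lower, a count fixed by their choice, and the gamma-tubulin nucleation complex has 5 lower and none higher. Among all genes tested 24.7% were higher and 24.9% lower.

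Of 18 tested genes of stabilisers and end-binding proteins 4 rose, 8 fell and 6 did not pass. Over all genes tested 24.7% were higher and 24.9% lower. MAP1B, a lattice-binding protein, fell from 731 ± 48.0 to 442 ± 9.04 CPM (edgeR adjusted p = 1.1e-08). MAP1A, at 774 ± 34.9 and 808 ± 4.33 CPM, did not pass, and it passed as higher after correction for exonic size (log2 0.24, edgeR adjusted p = 0.0049). CLASP2, of the same list, fell by 0.68 ± 0.088 and was at -0.024 with the trend of its span of 222 kb removed. Under that alternative the list's counts turned to 9 higher and 3 lower. Of 11 destabilisers and severing enzymes 1 rose, 5 fell and 5 did not pass. KIF18A, a kinesin that shortens spindle microtubules, fell by 1.06 ± 0.13 (edgeR adjusted p = 3.3e-07) and KATNAL1, a katanin-like severing enzyme, by 0.48 ± 0.079, with -0.25 after correction for span and -0.27 for GC content. STMN1, the stathmin that sequesters tubulin dimers, was at 195 ± 11.9 and 186 ± 11.3 CPM (edgeR adjusted p = 0.48) and passed as lower after correction for span (-0.18, edgeR adjusted p = 0.043).

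Of 20 tubulin-modifying enzymes 3 rose, 7 fell and 10 did not pass. Over all genes tested 24.7% were higher and 24.9% lower. TTL, which restores the terminal tyrosine of alpha-tubulin, rose from 134 ± 4.87 to 162 ± 7.23 CPM (log2 0.27, edgeR adjusted p = 0.0045), with 0.57 after correction for exonic size and 0.40 for GC content. TTLL5 and AGTPBP1, which add and remove glutamate chains on tubulin tails, fell by 1.21 ± 0.11 and 1.09 ± 0.14, and by 0.33 and 0.51 with the span trend removed. Of 12 kinesins of interphase transport 2 rose (1 without UVB + sauchinone replicate 1), 3 fell and 7 did not pass. KLC2, a kinesin light chain, rose by 0.84 ± 0.10 (edgeR adjusted p = 3.2e-07), and by 0.56 after correction for GC content. KIF16B, an endosomal motor spanning 301 kb, fell by 2.24 ± 0.17 and by 1.40 with the span trend removed. KIF5B, the kinesin gene with the highest level, was at 479 ± 79.2 and 424 ± 29.2 CPM (edgeR adjusted p = 0.11). It passed as lower without UVB replicate 2 (log2 -0.27, edgeR adjusted p = 0.0054). Of 17 dynein and dynactin genes 4 rose, 4 fell and 9 did not pass, the falling genes being 7 without UVB replicate 3. DYNC1I2, an intermediate chain, fell by 0.47 ± 0.074 and DCTN4, a dynactin subunit, rose by 0.45 ± 0.073. DYNC1H1, the heavy chain and the gene with the highest level of the list, was at 1470 and 1420 CPM (edgeR adjusted p = 0.51). It passed as higher after correction for exonic size (log2 0.54, edgeR adjusted p = 1.3e-06) and as lower after correction for GC content (-0.14, 0.027).

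The tubulin genes had a median span of 8.26 kb, from 2.42 kb in TUBB4B to 85.9 kb in TUBA1C. Of the 15704 genes tested, 11085 lay in that wide range, which therefore does not stand for short genes alone. Of these, 29.7% were called higher and 17.5% lower. With the trend of counts with span removed, TUBB3, TUBA4A, TUBB2A, TUBB4B and TUBB2B were at 1.48, 1.27, 0.94, 0.89 and 0.73. TUBA1C was at 0.54, TUBB6 at 0.067, TUBA1B at 0.01, TUBA1A at -0.16 and TUBB at -0.36. The correction of TUBA1C used its whole annotated span, which starts at 49188736. The start codon of its reference transcript is at 49265182, so its corrected value depends on the span assigned to it. Genes of dividing cells, which build spindles, were lower. Of 12 tested 10 fell and none rose, beside 24.9% lower and 24.7% higher among all genes tested. The 12 genes had summed levels of 566 to 630 CPM in UVB and 343 to 397 CPM in UVB + sauchinone, with none at 0. Their part in the tubulin values was not tested. In these bulk libraries fewer cells of a type and less RNA per cell cannot be told apart.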

How the data were processed

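The authors deposited 1 table holding raw whole-number counts, FPKM and an exonic size for each gene. The submitters' processing notes name the genome build GRCh38. Aligner, counter, annotation and any use of strand: not given in the sources used here. The deposited FPKM values equalled count per exonic size and total count within 0.006 in 100% of values, so they were not tested. The members and gene lists were chosen with earlier results of these data known.

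The deposited counts went into edgeR 4.0.16 (R 4.3.3): filterByExpr (15704 genes), TMM scaling, the quasi-likelihood test of UVB + sauchinone against UVB, both directions, Benjamini-Hochberg adjustment over all genes tested, threshold 0.05. The test was checked on simulated counts with far fewer changed genes than were called here, so change this broad was not checked. CPM used TMM-adjusted library sizes, and each SE is the log2 fold change over the root of F. Shares used counts per kb of exonic size.

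Named genes were the 10 members, in each list the 2 genes with the smallest p and the one with the highest level, TUBG1, TTC5 and the 5 genes nearest the summed tubulin profile. Members of a list are also named where a count is small, after their values were seen. Alternatives were DESeq2 1.42.0, limma-voom (limma 3.58.1), other normalizations and filters, a fit blocked on replicate number, leaving out 1 library at a time, and corrections, made as offsets in each library, for a smooth trend with span, size of exons or GC of transcripts (GENCODE release 29). Replicates differed by more than counting noise. No column belonged to another sample. Coding starts were read from GENCODE release 29 and promoters from RefSeq (GRCh38.p14).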

Additional observations from a re-analysis of the deposited data

How the results depend on the processing

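The tubulin genes called numbered 5 to 8 over all alternatives (6 to 8 with 1 library left out), other microtubule genes called 56 to 85 (56 to 72) and genes called 5487 to 8223 (6718 to 7914). The replicate numbers did not pair the libraries (correlation of deviations of 0.0072, -0.078 and -0.031), and with the replicate block 7280 genes were called, 7 tubulin genes and 62 other microtubule genes. Some differences that did not pass changed sign, and DYNC1H1 passed in opposite directions. TUBA1A was at -0.16, -0.008 and -0.02 after correction for span, exonic size and GC content, and at -0.009 to 0.15 with 1 library left out. CNOT1 was at -0.02 to 0.064 with 1 library left out. With the span trend removed TUBG1 was at -0.019, MAP1A at -0.061 and DYNC1H1 at 0.13, and DYNC1H1 was at 0.54 with the exonic size trend removed and -0.14 with the GC trend removed. With the GC trend removed TUBB6 was at -0.11, MAP1A at -0.087, STMN1 at 0.042 and KIF5B at 0.068. The cause was not tested. The TUBB share of the beta pool was 61.0% in UVB and 47.5% with sauchinone in raw counts, and 52.1% in UVB per kb of reference transcript. That of TUBB4B was 13% and 24.5% in raw counts and 18.2% and 31.7% per kb of reference transcript. No scaling moved the median of all genes by over 0.1. The median SE was 0.098 in the tubulin genes.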

Other observations

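Actin and intermediate filament genes build the other filaments of the cytoskeleton. Of 16 tested 10 fell (ACTB, ACTG1, ACTA2, TPM1, TPM4, MYH9, FLNA, ACTN1, VIM and NES), TPM3 and MYL6 rose and 4 did not pass, beside 24.9% lower and 24.7% higher among all genes tested, with a median log2 fold change of -0.28. NES, the intermediate filament protein nestin, fell from 230.0 ± 12.4 to 112 ± 6.21 CPM (mean ± SD, n = 3, edgeR adjusted p = 1.8e-10). TPM4, a tropomyosin that lines actin filaments, fell by 0.82 ± 0.063 on the log2 scale (edgeR adjusted p = 3.7e-10). VIM, the vimentin gene and the most abundant of the list, fell from 5560 ± 448 to 4580 ± 77.1 CPM (log2 -0.28, edgeR adjusted p = 0.00092), with -0.48 after correction for span. The list's members span a median of 27.7 kb, and the count that rose was 0 to 1 without any 1 library other than UVB replicate 2, and 1 after correction for span, exonic size or GC content. Lower smooth muscle and pericyte markers (5 of 7 fell, none rose, summed level of 357 to 359 CPM in UVB and 173 to 189 CPM in UVB + sauchinone, none at 0) went with this list, and their part in it was not tested.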
